A study of Homo sapiens with 12 samples.

Results

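Complement and coagulation proteins are enzyme precursors, cofactors and inhibitors of plasma, many of them secreted by liver cells. A set of 40 such genes, chosen by name, was followed here among 19974 protein-coding genes. The list was meant for genes made mainly by the liver, but where each gene is made was not checked here, and this need not hold for every member. All 40 were found in the RefSeq gene table of GRCh38.p14. Of these, 22 are complement genes and 18 belong to coagulation, the contact system, anticoagulation or fibrinolysis. The cells were Huh7, a wild-type human hepatocellular carcinoma line. They were kept for 48 h in choline-free DMEM in which B-27 took the place of serum, with 15 µM or 0 µM choline chloride. The series asks how choline changes enhancer marks and transcription in this line and what part the factor KLF5 plays. Its 12 samples include 4 ChIP-seq libraries whose summit lists were used here, 1 for H3K27ac and 1 for H3K4me1 at each dose. RNA-seq, input and CUT&Tag samples were not analysed here.

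Complement starts from the C1 complex or from lectins that bind microbes, and both routes cleave C4 and C2. The alternative pathway amplifies C3 cleavage through factors B and D, and C5 to C9 then build the membrane attack complex. In coagulation, a chain of serine proteases ends in thrombin, which cleaves fibrinogen, while protein C and protein S restrain the chain and plasmin dissolves the clot. Hepatocytes transcribe most of these genes under liver-enriched factors such as HNF1, HNF4 and C/EBP. Acetylation of H3K27 is found at promoters and enhancers in use, and H3K4me1 at enhancers whether in use or primed.

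Each list gives summits, the points of highest enrichment within called peaks. The H3K27ac lists held 29305 summits at 15 µM and 37946 at 0 µM, and the H3K4me1 lists held 349202 and 343156. With 1 library per mark and dose there was no replicate spread and no test between doses, and read depth is unknown. A scaled difference is the 15 µM count minus the 0 µM count times the ratio of list lengths, which was 0.772 for H3K27ac and 1.02 for H3K4me1. A gene end is either annotated end of a gene, with a summit there when 1 lay within 1 kb. A gene with such a summit at 0 µM counts as lost when no 15 µM summit came within 2 kb of its ends, and as gained when only the 15 µM list had one and no 0 µM summit came that near. Windows reach 50 kb from either end. Stretches given below by their distance from a gene start were chosen after their values were seen. Scores are the authors' own, and rank summits within 1 list. The liver label was checked on marker genes. Hepatocyte markers had an H3K27ac summit at an end in 8 of 9 genes at 15 µM and in 6 of 9 at 0 µM, SERPINA1 having none at either dose. Blood cell markers had 1 of 5 at 15 µM and 0 of 5 at 0 µM, fibroblast and stellate markers 0 of 5 at both doses, and endothelial markers 1 of 4, PECAM1, at both. Their windows summed to 145 H3K27ac summits at 15 µM and 129 at 0 µM for hepatocyte markers, 4 and 9 for blood, 7 and 11 for fibroblast and stellate, and 9 and 6 for endothelial markers, with VWF, KDR and CDH5 at 0. The part of these values in the results was not tested.

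A few promoters are shown first as examples. PROC, CFD and HRG had an H3K27ac summit near the start at 1 dose, C5 had one near its inner start and none near its outer start, and F2 had one of the 3 highest-scoring gene-end summits of the set. They run from 250 bases before to 50 after the annotated start, are written 5′ to 3′ on the gene's strand and come from RefSeq (GRCh38.p14). Capitals mark matches on either strand to 6 motifs. These were CACCC, which KLF factors can bind, and GGGCGG, the letters of a GC box. They were also GTTAAT, from the site of HNF1, and CAAAGT, from the site of HNF4. The others were TTGCAA, from the site of C/EBP, and TATAAA, the core of many promoters in which transcription starts at a fixed point. PROC encodes protein C and has its promoter at chr2:127418177-127418476 on the plus strand. HRG encodes histidine-rich glycoprotein, at chr3:186665764-186666063 on the plus strand. CFD encodes complement factor D, the protease that cleaves factor B, at chr19:859414-859713 on the plus strand. F2 encodes prothrombin, at chr11:46718963-46719262 on the plus strand. C5 has an inner start with its promoter at chr9:121050226-121050525 and an outer one at chr9:121074816-121075115, both on the minus strand.
PROC: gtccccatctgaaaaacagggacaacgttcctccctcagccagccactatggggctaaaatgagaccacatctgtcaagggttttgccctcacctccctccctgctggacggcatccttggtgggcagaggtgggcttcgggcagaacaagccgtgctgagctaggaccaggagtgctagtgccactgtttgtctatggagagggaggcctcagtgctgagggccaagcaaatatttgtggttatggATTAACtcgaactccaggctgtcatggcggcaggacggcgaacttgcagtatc
HRG: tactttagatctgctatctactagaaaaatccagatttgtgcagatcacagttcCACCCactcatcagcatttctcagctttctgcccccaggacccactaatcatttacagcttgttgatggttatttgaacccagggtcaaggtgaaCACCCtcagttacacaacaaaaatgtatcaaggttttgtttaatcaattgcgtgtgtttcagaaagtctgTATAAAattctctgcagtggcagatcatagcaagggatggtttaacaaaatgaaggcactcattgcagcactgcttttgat
CFD: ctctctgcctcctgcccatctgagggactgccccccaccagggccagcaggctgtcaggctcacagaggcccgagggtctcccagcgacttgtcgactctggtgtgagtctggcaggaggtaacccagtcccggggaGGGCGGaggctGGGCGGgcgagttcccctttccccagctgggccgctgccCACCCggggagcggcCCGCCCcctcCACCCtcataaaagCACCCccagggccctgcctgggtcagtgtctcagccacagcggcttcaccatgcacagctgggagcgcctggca
F2: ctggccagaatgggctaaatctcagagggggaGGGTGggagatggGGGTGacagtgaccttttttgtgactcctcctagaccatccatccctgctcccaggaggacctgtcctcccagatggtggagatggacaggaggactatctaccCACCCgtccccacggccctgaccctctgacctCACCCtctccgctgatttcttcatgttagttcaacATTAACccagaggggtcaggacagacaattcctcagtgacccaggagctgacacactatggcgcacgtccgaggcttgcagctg
C5 inner start: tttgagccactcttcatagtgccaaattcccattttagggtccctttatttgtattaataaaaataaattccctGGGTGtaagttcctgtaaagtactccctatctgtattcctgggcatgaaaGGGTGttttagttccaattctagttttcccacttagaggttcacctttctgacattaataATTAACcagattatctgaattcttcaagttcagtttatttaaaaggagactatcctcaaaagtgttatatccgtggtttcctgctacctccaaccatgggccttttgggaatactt
C5 outer start: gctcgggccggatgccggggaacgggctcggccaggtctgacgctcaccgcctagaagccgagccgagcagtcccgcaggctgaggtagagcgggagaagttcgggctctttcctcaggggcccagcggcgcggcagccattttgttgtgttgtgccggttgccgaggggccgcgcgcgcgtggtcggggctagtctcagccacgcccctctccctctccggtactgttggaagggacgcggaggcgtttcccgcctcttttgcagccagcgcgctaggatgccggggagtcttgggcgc

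PROC and CFD had an H3K27ac summit near the start at 15 µM and none within 2 kb of either gene end at 0 µM, HRG had the opposite, and F2 and the inner C5 start had summits nearby at both doses. Promoters were listed for 34 of the 40 genes, 45 promoters in all. They were poorer in G and C than those of all protein-coding genes, with a median GC content of 49.7% against 62.3% over 22156 promoters, and a median of 5 CpG dinucleotides against 21. GGGCGG was present in 11.1% of the promoters of the set and in 56.3% of all. GTTAAT was present in 24.4% and 5.56%. By gene it was found in 10 of the 34, as 1 PLG site was counted in 2 overlapping promoters. None of these shares was matched for GC content. CAAAGT was present in 17.8% and 10.1%, TTGCAA in 11.1% and 4.64%, TATAAA in 8.89% and 9.46%, and CACCC in 55.6% and 63.4%. In the sequences shown, none of the 6 motifs overlapped another. GTTAAT is on the reverse strand in 3 of them. It begins 34 bases before the start of F2, 66 before the inner start of C5 and 3 before the start of PROC. The outer C5 promoter, with 33 CpG dinucleotides against 1 in the inner, holds none of the 6.

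H3K27ac summits lay at an end of 12 of the 40 genes at 15 µM and of 12 at 0 µM, that is 30.0% at each dose (exact 95% interval 16.6 to 46.5). Over all genes the share was 16.2% at 15 µM and 28.3% at 0 µM. The genes with one at both doses were MASP1, MBL2, C8A, F2, KNG1, PROS1, A2M and CPB2, 8 of 40, against 2696 of all 19974 genes. None at either dose was found for 24 of 40, against 13794 of the 19974. Loss was seen at 3 of the 12 genes marked at 0 µM (25.0%, 5.49 to 57.2), which were HRG, C8G and C4B, and at 43.9% of all genes so marked. Gain was seen at 4 of the 12 marked at 15 µM (33.3%, 9.92 to 65.1), which were PROC, CFD, CFB and C4A, and at 10.5% of all genes so marked. Both intervals include the share over all genes, and they cover counting error alone and treat neighbouring genes as independent. With 1 gene per 200 kb, 10 of 30 genes had an H3K27ac end at each dose, 1 was lost and 2 were gained.

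**Figure D1:**
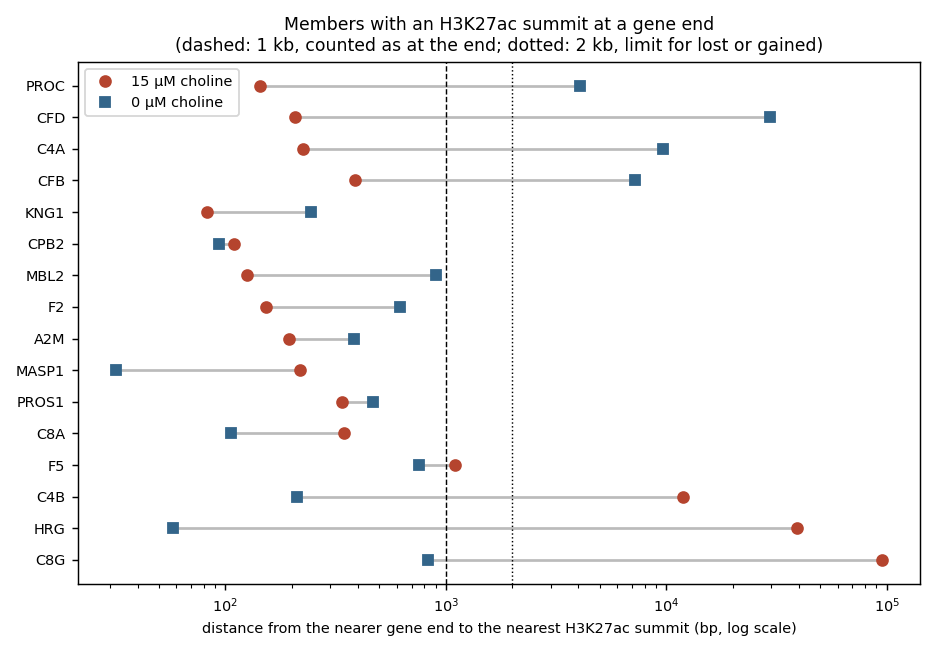
Distance from the nearer gene end to the nearest H3K27ac summit (bp, log scale) at 15 µM choline (circles) and 0 µM choline (squares) for the 16 genes with a summit within 1 kb of an end at either dose. At 8 genes both symbols lie left of the 1 kb line, and at PROC, CFD, C4A, CFB, C4B, HRG and C8G 1 of them lies beyond 2 kb.

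At PROC the 15 µM summit lay 144 bp before the start, at position 127418283, with a score of 13.2, and at 0 µM the nearest summit lay 4082 bp before it. H3K4me1 had a summit 823 bp before the PROC start at 15 µM and 1424 bp before it at 0 µM. At CFD the 15 µM summit lay 206 bp past the start with a score of 6.42, near the lowest score of that list (5.01), and the nearest 0 µM summit lay 29714 bp from the gene. This CFD summit ranked at the 8.64th percentile of its list, so that it was among the weakest called. CFB encodes factor B, the protease of the alternative C3 convertase, and its gained summit lay 389 bp beyond the end of the gene that is not its start, within 1 kb of an end of NELFE as well. At 0 µM the nearest summit lay 7212 bp from CFB. Requiring absence within 10 kb left CFD as the 1 gained end.

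HRG, a plasma glycoprotein that binds plasminogen and heparin, had its 0 µM summit 58 bp past the start with a score of 11.3, and the nearest 15 µM summit lay 39208 bp away, at KNG1. Within 50 kb of HRG there were 2 such summits at 15 µM, both within 2 kb of the KNG1 start, and 4 at 0 µM, 3 of them within 2 kb of it. C8G, a subunit of complement C8, had its 0 µM summit 833 bp from the gene, within 1 kb of an end of FBXW5, and the nearest 15 µM summit lay 95437 bp away. The C8G summit had a low score of 7.45, at the 16.5th percentile of its list.

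C4A and C4B, the near-identical copies of the C4 gene, made up 1 gained and 1 lost end. The 15 µM summit lay 224 bp past the higher-coordinate end of C4A (position 32002905), and the 0 µM summit lay 211 bp past that of C4B (position 32035629). These summits were 32724 bp apart, and the copies' starts are 32738 bp apart. Summits at almost the same place of the repeat thus stood at C4A in the 15 µM list and at C4B in the 0 µM list, and the copies cannot be told apart here. Without C4A and C4B, 2 ends were lost and 3 gained among 38 genes.

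Summed over the windows of the set, H3K27ac gave 141 summits at 15 µM and 160 at 0 µM, or 130 and 145 when each summit was counted once. After scaling, 53.3% of window summits were from 15 µM (95% interval 47.5 to 59.0), against 47.7% summed over all genes. That interval treats each counted summit as independent, counts shared summits more than once and holds the list ratio fixed. It does not measure spread between genes or libraries. The median scaled difference was 0 for the set and 0 over all genes, and the mean was 0.44 summits per gene against -0.21. The scaled difference was positive for 19 genes (47.5%, against 24.4% of all genes) and negative for 16 (40%, against 42.8%). No summit at either dose was found for 5 of the 40, against 6546 of the 19974 genes, which lowers the shares over all genes. Of the 19, MASP1, KNG1, F2 and CFB had fewer summits at 15 µM before scaling. Equal counts were those of C2, C4A, C4B, C6, CFD, CFI, F8 and A2M, so that these too were positive through the scaling alone. The median member had 2 summits at each dose, against 1 at 15 µM and 2 at 0 µM over all genes. The mean was 3.52 at 15 µM and 4.0 at 0 µM, against 2.20 and 3.12. MASP1, F5, PROC and KNG1 held the most at 0 µM. At 15 µM MASP1 and F5 did, followed by KNG1 and C5 with 10 each. Of genes with 5 or more window summits at 0 µM, 9 of 11 members had a positive difference (81.8%), against 41.3% of 4835 genes, and 2 of 11 a negative one (18.2%), against 58.7%. These genes were picked by the 0 µM count, which is also 1 side of the difference and the base for loss. The shares in this subset therefore describe it and are no test. Of the 9, F5, C5 and CPB2 had more summits at 15 µM before scaling. MASP1, KNG1, F2, CFB, C2 and A2M were positive through the scaling alone. In the same 11 members H3K27ac marked an end of 7 at 15 µM and of 6 at 0 µM, against 38.1% and 58.7% of the 4835 genes. None of the 6 was lost (0 to 45.9), against 32.2%, and 2 of the 7 were gained, PROC and CFB (28.6%, 3.67 to 71.0), against 6.35%, so that the interval on loss includes the share over all such genes and so does that on gain. C2 and CFB, both among the 11, share all 5 of their summits at 0 µM and so are not separate. Of members with 4 or more summits in both lists together, 6 of 22 were at least 1.5-fold higher at 15 µM after scaling (27.3%, against 15.9% over all genes) and 5 at least 1.5-fold lower (22.7%, against 34.9%).

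**Figure D2:**
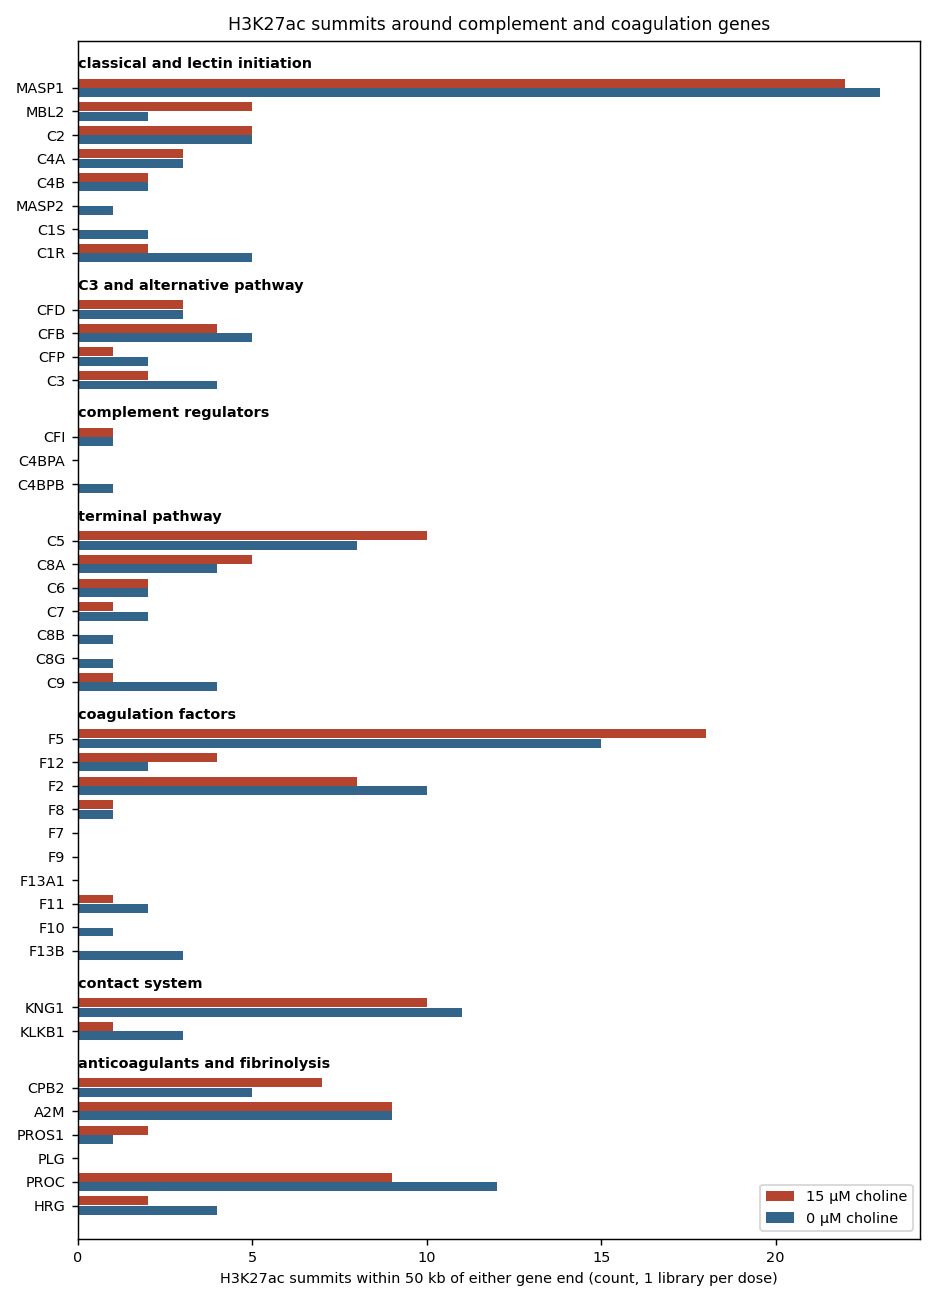
Number of H3K27ac summits within 50 kb of either end of each gene at 15 µM choline (upper bar) and 0 µM choline (lower bar), by role, 1 library per dose. MASP1 and F5 held the most, with 22 and 18 at 15 µM, and F7, F9, F13A1, PLG and C4BPA had no bar at either dose.

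Among the genes that start complement, MASP1 had 22 summits at 15 µM and 23 at 0 µM, and a scaled difference of 4.24. It encodes a protease that activates the lectin pathway. Within 31 kb after its start lay 19 summits at 15 µM and 16 at 0 µM, spread over the first part of the gene. In the stretch 58 to 82 kb after the start there were 0 at 15 µM and 4 at 0 µM. MBL2, the mannose-binding lectin that carries the MASP proteases, had 5 summits at 15 µM and 2 at 0 µM, for a scaled difference of 3.46. All of them lay within 5 kb before or 2 kb after the outer MBL2 start and had MBL2 as the nearest gene. An inner MBL2 start, with a GTTAAT on the reverse strand 33 and again 23 bases before it, had 2 summits within 1 kb at 15 µM and none there at 0 µM.

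C2, the protease that C4b holds in the classical C3 convertase, had 5 window summits at each dose. C1R and C1S, the protease pair of the C1 complex, lay at the other end of the order. C1R had 2 at 15 µM and 5 at 0 µM (scaled difference -1.86), and C1S had 0 and 2 (-1.54). All of these were nearer to RBP5, C1RL or LPCAT3. MASP2, the protease that cleaves C4 and C2, had 0 at 15 µM and 1 at 0 µM. C4A had 3 at each dose and C4B 2, in windows that overlap those of C2 and CFB. The 15 µM summit at the C4A end and the 0 µM summit at the C4B end lay outside the windows of C2 and CFB.

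For C3, the central complement protein, the H3K27ac count was 2 at 15 µM and 4 at 0 µM (scaled difference -1.09), with every summit nearer to another gene. CFB had 4 and 5, CFD 3 and 3, and CFP, which encodes properdin and is also known from myeloid cells, 1 and 2. None of the 3 regulators had an H3K27ac summit at an end. CFI, the protease that inactivates C3b and C4b, had 1 summit at each dose, nearer to GAR1. C4BPB, a chain of the C4b-binding protein, had 0 at 15 µM and 1 at 0 µM, and C4BPA, the other chain, had none.

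In the terminal pathway C5 had 10 summits at 15 µM and 8 at 0 µM, a scaled difference of 3.82, and all lay inside the gene. The H3K27ac list had none within 1 kb of the outer C5 start at either dose, and H3K4me1 had 2 there at 15 µM and 1 at 0 µM. The inner start had an H3K27ac summit 210 bp before it at 15 µM and 405 bp before it at 0 µM, with scores of 21.2 and 21.0. From 20 to 29 kb after the outer start, around the inner one, there were 2 summits at 15 µM and 4 at 0 µM. A second group lay 88 to 93 kb after the outer start, with 5 at 15 µM and 3 at 0 µM.

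C8A, the alpha chain of C8, carried the highest-scoring H3K27ac gene-end summit of the set in both lists, 344 bp past its start at 15 µM (score 37.0, 98.3th percentile of the list) and 106 bp past it at 0 µM (score 40.6, 96.1th percentile). In all it had 5 at 15 µM and 4 at 0 µM. C8B, the beta chain beside it, had 0 and 1. C6, a later component of the attack complex, had 2 at each dose, both inside the gene. C7, which lies near C6, had 1 at 15 µM and 2 at 0 µM. C9, the pore-forming component, had 1 at 15 µM and 4 at 0 µM (scaled difference -2.09), all nearer to DAB2 and at least 35335 bp from C9.

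**Figure D3:**
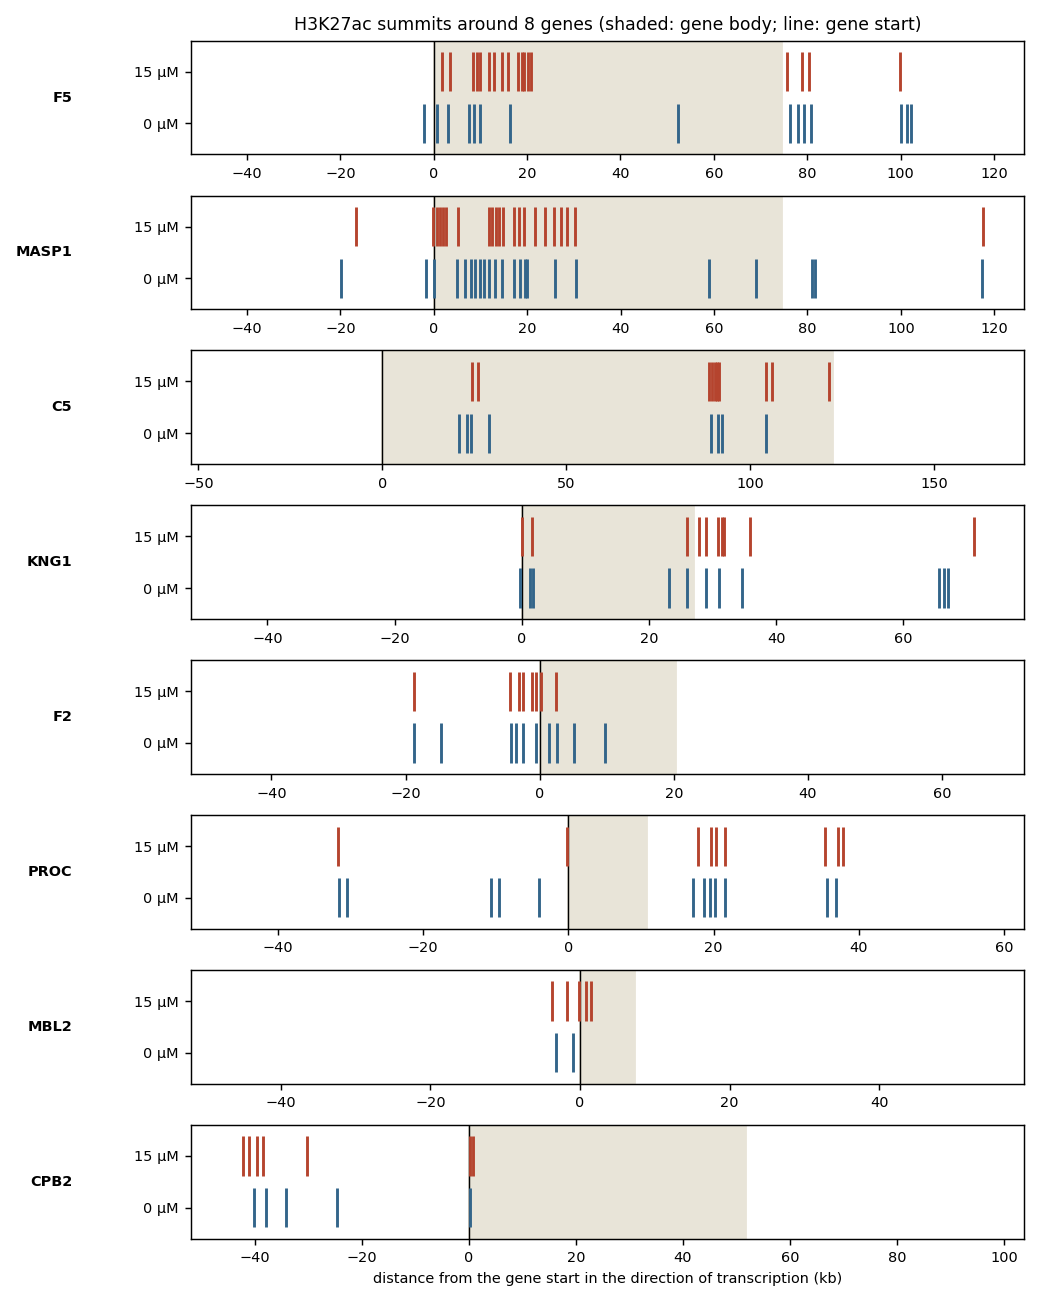
Positions of H3K27ac summits at 15 µM choline (upper row) and 0 µM choline (lower row) around 8 genes, as distance from the annotated gene start in kb, with the gene body shaded and each summit drawn as 1 tick. F5 shows 12 ticks at 15 µM and 3 at 0 µM between 8 and 21 kb, and PROC shows a tick beside its start at 15 µM alone.

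Of the coagulation factors, F5 had the largest scaled difference of the set, with 18 summits at 15 µM and 15 at 0 µM (6.42). Factor V is the cofactor that speeds the cleavage of prothrombin. From 8 to 21 kb after its start the lists held 12 summits at 15 µM and 3 at 0 µM. The highest-scoring F5 summit at 0 µM lay in that stretch, 16407 bp after the start with a score of 66.6. In contrast, 75 to 103 kb after the start there were 4 at 15 µM and 7 at 0 µM. Counted in 5 kb bins, F5 summits filled 7 bins at 15 µM and 9 at 0 µM, so that the larger count lay in fewer bins. Whether more summits mean wider acetylation or a stretch split into more summits was not tested. An F5 summit lay 756 bp past the start at 0 µM, and the one nearest to the start at 15 µM lay 1659 bp past it.

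F2 had 8 summits at 15 µM and 10 at 0 µM, a scaled difference of 0.28. From 5 kb before to 3 kb after its start there were 7 at 15 µM and 6 at 0 µM. The highest-scoring gene-end summit of F2 lay 153 bp past the start at 15 µM (score 27.5) and 623 bp before it at 0 µM (score 24.8). F12, the factor that starts the contact route, had 4 summits at 15 µM and 2 at 0 µM (scaled difference 2.46), all nearer to other genes. F8 and F11, factors of the intrinsic route, had 1 and 1 at 15 µM, against 1 and 2 at 0 µM.

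Several coagulation genes had little or no H3K27ac in either list. F13B, the carrier chain of factor XIII, had 0 summits at 15 µM and 3 at 0 µM (scaled difference -2.32), the most negative value of the set, and all 3 lay nearer to another gene. F10 had 0 at 15 µM and 1 at 0 µM. F7, F9 and F13A1 had none at either dose. The nearest H3K27ac summit lay 1380383 bp from F9 at 15 µM and 1349852 bp away at 0 µM, and for F13A1 363581 and 364358 bp. F7, the protease that tissue factor activates, was 99430 bp from the nearest summit at 15 µM and 72557 bp at 0 µM.

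KNG1, the precursor of bradykinin, had 10 summits at 15 µM and 11 at 0 µM (scaled difference 1.5). Its highest-scoring summits lay at almost the same base in the 2 lists, at 186743292 at 15 µM with a score of 60.7 and at 186743286 at 0 µM with a score of 84.4, inside the gene near its far end. From 25 to 36 kb after the KNG1 start there were 7 at 15 µM and 4 at 0 µM. At the KNG1 start itself a summit lay 83 bp past it at 15 µM and 246 bp before it at 0 µM. KLKB1, plasma prekallikrein, had 1 at 15 µM and 3 at 0 µM (-1.32).

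Of the genes for anticoagulants and fibrinolysis, 4 of 6 had an H3K27ac end at each dose, the largest share of the groups with more than 4 genes. CPB2, the carboxypeptidase that slows clot breakdown, had 7 summits at 15 µM and 5 at 0 µM (scaled difference 3.14). Of these, 5 at 15 µM and 4 at 0 µM were nearer to LCP1, and those at the CPB2 start lay 110 bp past it at 15 µM and 94 bp past it at 0 µM. A2M, a broad protease inhibitor, had 9 at each dose. It lies within the annotated span of KLRG1, and 2 of its 9 at 15 µM and 3 of 9 at 0 µM lay inside A2M, while the others lay nearer to KLRG1. The summit nearest to its end lay 195 bp outside A2M at 15 µM and 385 bp inside it at 0 µM. PROS1, protein S, had 2 at 15 µM and 1 at 0 µM. PROC had 9 at 15 µM and 12 at 0 µM, a scaled difference of -0.27. From 17 to 38 kb after the PROC start each list held 7, whereas 4 to 12 kb before it there were 0 at 15 µM and 3 at 0 µM. PLG, plasminogen, had none, and its nearest summit lay 306851 bp away at 15 µM and 237831 bp at 0 µM.

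The scaled share from 15 µM was also taken by role. It was 54.0% for the initiating genes, 48.0% for C3 and the alternative pathway, 39.3% for the regulators and 52.8% for the terminal pathway. It was 54.9% for the coagulation factors, 50.4% for the contact system and 54.8% for anticoagulants and fibrinolysis. The share was 52.4% over all 22 complement genes and 54.1% over the 18 others. The regulators had 1 summit at 15 µM and 2 at 0 µM, so their share rests on 3 summits.

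Positions were compared next. In the windows of the set, 45.4% of 15 µM H3K27ac summits had a 0 µM summit within 500 bp (36.6 to 54.3), against 50.7% in the whole list, and within 2 kb 82.3% (74.6 to 88.4), against 81.8%. Of the 0 µM summits, 40% had a 15 µM summit within 500 bp (32.0 to 48.5), against 38.7%. These H3K27ac intervals include the values of the whole lists. Of 15 µM H3K4me1 summits in the windows, 81.7% had a 0 µM one within 2 kb (79.0 to 84.2), against 74.9% in the whole list. Of the 0 µM ones, 81.5% had a 15 µM one that near (78.7 to 84.0), against 76.6%. Both intervals lie above the whole-list values. The whole lists also cover sequence far from genes, and no match for summit density was made. Member windows held a mean of 25.6 H3K4me1 summits at each dose, against 22.0 at 15 µM and 21.5 at 0 µM over all genes. The part of density in these shares was not tested. Within 500 bp the H3K4me1 shares were 46.6% and 46.3%, against 43.5% and 44.5%, and those intervals include the whole-list values. Windows also hold other genes, a median of 3 protein-coding genes (range 0 to 10) besides the member. For H3K27ac, a member was the nearest gene for 70.8% of the 130 summits at 15 µM and for 59.3% of the 145 at 0 µM, that is 92 and 86 summits.

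H3K4me1 was counted at gene ends and in windows in the same way. It lay at an end of 30 of the 40 genes at 15 µM (75.0%, 58.8 to 87.3) and of 33 at 0 µM (82.5%, 67.2 to 92.7), against 52.9% and 51.6% over all genes. With a limit of 500 bp the order turned round, with 20 genes at 15 µM and 17 at 0 µM. F13A1, F9 and CFP had none within 1 kb at either dose. Loss was seen at 2 of the 33 genes marked at 0 µM (6.06%, 0.743 to 20.2, against 8.92% of all genes so marked), and gain at none of the 30 marked at 15 µM (0%, 0 to 11.6, against 10.9%). The lost ends were those of C7 and PLG. The C7 summit lay at the end that is not its start, with a score of 2.54 at 0 µM, and the nearest 15 µM summit lay 4262 bp from the gene. The PLG summit lay 860 bp past the start with a score of 2.11 at 0 µM, and the nearest 15 µM summit lay 8025 bp from the gene.

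**Figure D4:**
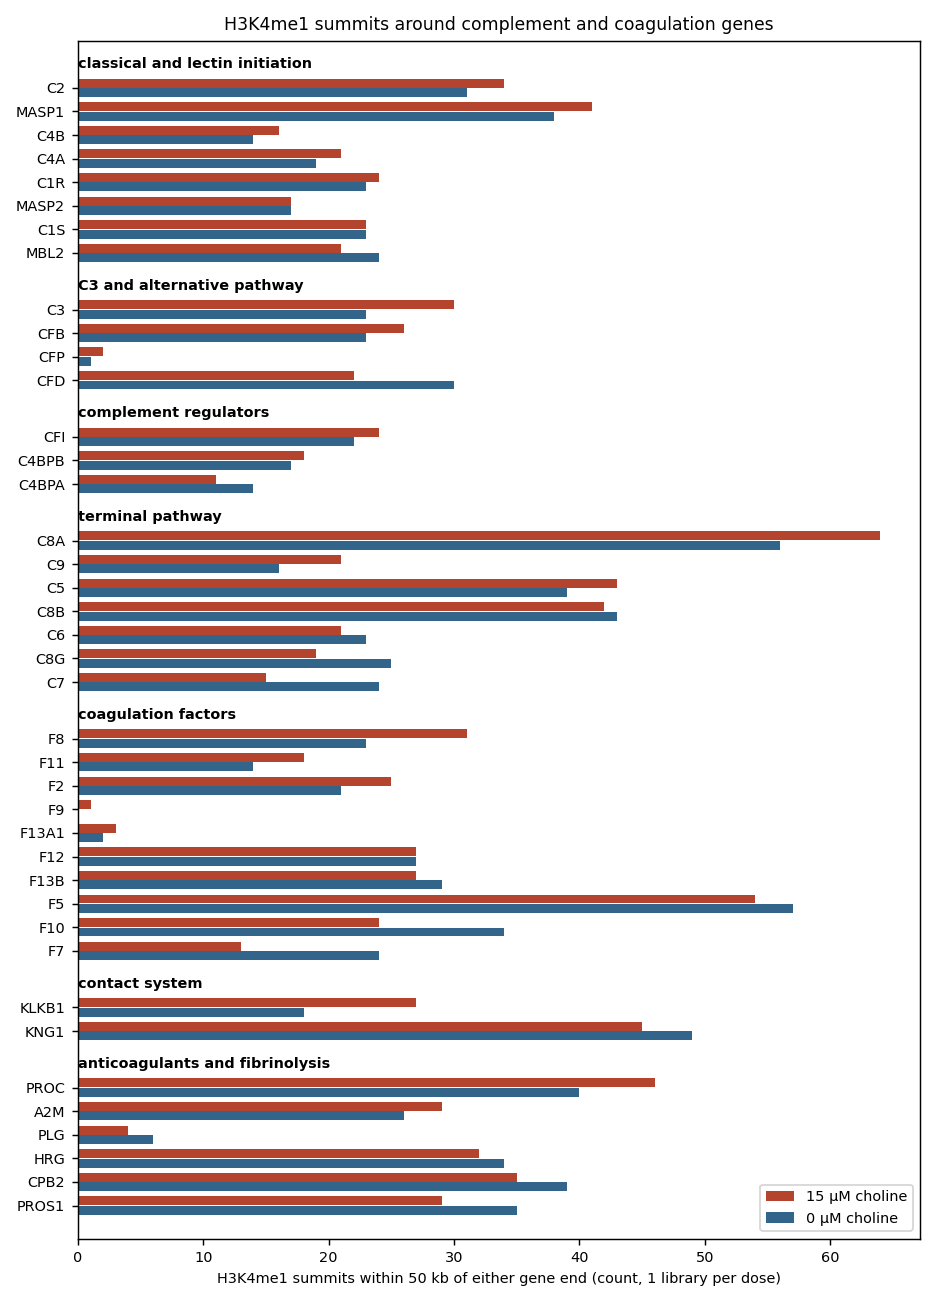
Number of H3K4me1 summits within 50 kb of either end of each gene at 15 µM choline (upper bar) and 0 µM choline (lower bar), by role, 1 library per dose. C8A held the most at 15 µM, with 64, and F5 at 0 µM, with 57 against 56 for C8A. F9, CFP, F13A1 and PLG held 6 or fewer at each dose.

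The windows held 1025 H3K4me1 summits at 15 µM and 1023 at 0 µM, or 864 and 858 when each was counted once. Of the scaled sum of all counts, 49.6% was from 15 µM (47.4 to 51.8, with the limits given for H3K27ac), against 50.1% over all genes. The scaled difference was positive for 21 genes (52.5%, against 48.9% of all genes) and negative for 19 (47.5%, against 50.2%). Its median was 0.65 summits per gene, against -0.02 over all genes, and its mean was -0.40, against 0.12, so that median and mean differed in sign. Of 38 members with 4 or more H3K4me1 summits, 0 were at least 1.5-fold higher at 15 µM (against 9.89% over all genes), and 3, C7, F7 and PLG, were at least 1.5-fold lower (7.89%, against 8.07%).

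The largest positive H3K4me1 differences were those of KLKB1, F8, C8A and C3. KLKB1 had 27 summits at 15 µM and 18 at 0 µM, F8 had 31 and 23, C8A 64 and 56, and C3 30 and 23. The largest negative ones were those of F7, with 13 at 15 µM and 24 at 0 µM, F10 with 24 and 34, C7 with 15 and 24, and CFD with 22 and 30. F7 and F10 are neighbours, and their joint windows held 24 and 34 H3K4me1 summits. Most of these summits were nearer to other genes, as F7 was the nearest gene for 1 at 15 µM and 2 at 0 µM, and F10 for 3 and 6. KLKB1 and C3 had more H3K4me1 summits at 15 µM and fewer H3K27ac summits there.

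At 15 µM, 11 of the 12 genes with an H3K27ac end had an H3K4me1 end too, and so had 11 of 12 at 0 µM. The exceptions were MASP1 at 15 µM and MBL2 at 0 µM. Either end counted for either mark, so the 2 marks need not lie together. At 15 µM C8A had H3K27ac at its start and H3K4me1 at its far end, and CFB had the reverse. At 0 µM F5 and HRG had H3K27ac at the start and H3K4me1 at the far end. Over all genes with an H3K27ac end the share with both was 63.1% at 15 µM and 63.9% at 0 µM. H3K4me1 without H3K27ac was found at the ends of 19 genes at 15 µM (47.5%, 31.5 to 63.9) and of 22 at 0 µM (55.0%, 38.5 to 70.7), against 42.7% and 33.6% over all genes. In 14 genes this held at both doses with no H3K27ac end at either (35.0%, against 22.2% over all genes). These were C1R, C1S, C2, C4BPA, C4BPB, C5, C9, CFI, F7, F8, F10, F11, F12 and F13B. Inner starts do not count as gene ends. Within 1 kb of an inner start, C5 had an H3K27ac summit at both doses, and C2 had one at 0 µM, 878 bp past it. Away from gene ends, over 2.5 kb from any, 55.7% of the 79 H3K27ac summits of the windows at 15 µM had an H3K4me1 summit within 1 kb (44.1 to 66.9), against 58.8% over all such summits. At 0 µM the share was 63.3% of 90 (52.5 to 73.2), against 67.1%.

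Other genes of these pathways, 48 by a list that includes receptors, membrane regulators, fibrinogen chains and serpins, were counted for comparison. For H3K27ac the sum over their windows was 194 at 15 µM and 210 at 0 µM, a scaled share of 54.5% from 15 µM. The fibrinogen genes FGA, FGB and FGG share 1 locus and its summits, with 27 each at 15 µM, against 22, 22 and 21 at 0 µM. Without them the sum was 113 at 15 µM and 145 at 0 µM, a share of 50.2%, and with each summit counted once over all 48 genes it was 139 and 162, a share of 52.6%. Both counts were added after the values were seen. Over all 48 the scaled difference was positive for 14 of them (29.2%, against 24.4% of all genes) and negative for 21 (43.8%, against 42.8%), and 13 had no summit. H3K27ac lay at an end of 12 at 15 µM (25%, against 16.2% of all genes) and of 14 at 0 µM (29.2%, against 28.3%). None of the 12 was gained, against 10.5% of all genes so marked. Of the 14, 2 were lost (14.3%, against 43.9%), among them that of F3. F3, tissue factor, had 1 at 15 µM and 3 at 0 µM in its window. SERPIND1, heparin cofactor II, chosen after its values were seen, had 18 at 15 µM and 8 at 0 µM.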

How the data were processed

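The files give the summits of 1 library each, called per library. The score column the authors deposited was taken as a −log10 p or q value, which of these being not stated, since the layout is that of MACS2 summits. Per the submitters' processing notes the tools were MACS2, Bowtie, deepTools and Picard, with no version named, and the build was hg38. How peaks were called, whether input was used and how deeply libraries were sequenced is not given in the sources used here. Numbers of summits called can depend on depth and enrichment as well as on chromatin. Names inside the H3K4me1 lists carry letters instead of doses, so their dose rests on the sample labels.

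Genes and summits on the autosomes and X were kept, with 1-based positions (Python 3.11.15, pandas 2.3.3, SciPy 1.17.1). Scores were used to describe and rank summits within a list. Gene ends came from the RefSeq table of GRCh38.p14, strand and starts from RefSeq promoters. Intervals on shares are 95% Clopper-Pearson ones for counting error alone. Those on scaled window sums were carried through the fixed ratio of list lengths and treat counted summits as independent. Exon and UTR positions were not used here. The counting was tested on simulated data, in which summits were removed or added at chosen genes. That checks the counting code alone and tells nothing of depth or of how peaks were split. The 40 genes and all lists were chosen with earlier results of these data known. Genes described in full were those with a gained or lost H3K27ac end, the 6 largest scaled differences each way for H3K27ac (7 negative, because of a tie) and 4 each way for H3K4me1, and the 3 highest-scoring H3K27ac ends. Every other member is given by its counts, and 1 gene of the wider pathway list is not reported here. Alternatives changed the gene-end, absence, window and H3K4me1 distances, the score threshold, the list lengths and the counting of neighbours.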

Additional observations from a re-analysis of the deposited data

How the results depend on the processing

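No paired analysis was possible because each mark and dose has 1 library. The scaled H3K27ac share from 15 µM stayed between 51.7% and 58.1% in 12 settings, lowest without F5 and MASP1 and highest over summits whose nearest gene is the member, both chosen after seeing the data; its interval includes 50%. The H3K4me1 share lay between 48.8% and 51.3% in 11 settings. The H3K27ac counts of ends rest on few genes. Lost ends numbered 1 among summits above each list's median score, with lists of equal length, at gene starts alone and with 1 member per 200 kb. Gained ends numbered 1 with absence required within 10 kb, and 2 at gene starts alone and with 1 member per 200 kb. Members with a negative H3K27ac difference numbered 9 above the median score, 9 with 1 member per 200 kb, and 8 over summits whose nearest gene is the member. Within 500 bp, H3K27ac ends numbered 12 at 15 µM and 8 at 0 µM, and H3K4me1 ends 20 and 17, with 0 lost. Lost H3K4me1 ends were also 0 with absence required within 10 kb, and 1 at gene starts alone and with 1 member per 200 kb. Gained H3K4me1 ends numbered 1 above the median score. The median H3K4me1 difference was -0.33 with windows of 20 kb, -0.07 above the median score, -0.10 over summits nearest to the member and 3.09 with windows of 100 kb. The share of distal H3K27ac summits with H3K4me1 was 34.2% at 15 µM and 40% at 0 µM within 500 bp, and 77.2% and 84.4% within 2 kb. The cause of these shifts was not tested beyond the change in distance, list length or genes counted. Depth is unknown, so an empty window shows that no summit was called and not that the mark is absent.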
